A study of Mus musculus with 6 samples.

Results

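The fat, calcium and amino acid sensors of taste cells considered here are 8 receptor genes of the 23361 genes in the deposited table: Cd36, Ffar4, Ffar1, Ffar2, Gpr84, Casr, Gprc6a and Grm4. They were chosen by name, from what their proteins are known to bind. All 8 names were found, with the long-chain fatty acid receptor listed as Ffar4. RNA came from taste cells that were isolated with enzyme from the CV (circumvallate) and Fol (foliate) papillae of C57BL/6 mice, an inbred strain, and neither age carried a named allele or agent. At 2 months, each of the 3 libraries was made from a pool of 4 mice, and at 6 months each of the 3 was made from a pool of 3 mice, so that single animals cannot be seen. The question was which taste cell genes differ between the ages. The table holds 1 value for each gene and age, in FPKM, which counts sequenced fragments scaled by transcript length and by library size; the authors' software gave it for the 3 pools of an age together. The spread between pools is therefore unknown for every value below, and no test between the ages was run.

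Besides sweet, umami, bitter, salty and sour receptors, taste cells have been reported to carry receptors for nutrients that are not classical taste qualities. Free fatty acids are bound by Cd36, a scavenger receptor and fatty acid carrier on the surface of some taste cells, and by G protein-coupled receptors that differ in the chain length they prefer. Calcium and amino acids are bound by class C receptors, which have a large folded domain outside the cell and work as pairs; the umami and sweet receptors belong to the same class. Fatty acids reach these receptors after lipases have cut them from dietary fat.

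The isolated cells carried the transcripts that define taste cells. All 8 markers listed for type II cells, which detect sweet, umami and bitter compounds, and all 8 listed for type III cells, which detect sour compounds, had a mean of 1 FPKM or more, as had 3 of 4 markers of the glia-like type I cells. The sums at 2 and 6 months were 380 and 364 FPKM for type II, 62.5 and 74.5 FPKM for type III, and 77.9 and 70.0 FPKM for type I markers. Most of the last sum was Entpd2 (66.1 and 57.7 FPKM), and Slc6a11, also of type I cells, was past 1.5-fold higher at 6 months (1.76 and 3.56 FPKM). Epithelial genes were far more abundant, with Krt5 at 2179.8 FPKM and 1961.7 FPKM, and 7 of 8 keratinocyte markers had means over 1 FPKM. Of these, Krt10 (150 and 70.5 FPKM) was past 1.5-fold lower at 6 months. Krt4 also passed this fold, but only through a listed 0 at 6 months. An exact 0 in this table can be a failed estimate, since Krt4 is listed at 7334 FPKM at 2 months and at 0 at 6 months, Krt6a at 0 and 3391 FPKM, and Krt13 at 0 in both ages. A gene is therefore described as listed at 0, not as absent.

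Grm4 was the most abundant sensor gene. It encodes metabotropic glutamate receptor 4, of which a shortened form has been described as a glutamate receptor of taste cells, and it lies on chromosome 17 of GRCm38 from 27422387 to 27513826, on the minus strand. Its value was 4.26 FPKM at 2 and 4.75 FPKM at 6 months. Ffar4 followed with 1.88 FPKM at 2 and 1.58 FPKM at 6 months. Ffar4, also called GPR120, is the receptor for long-chain fatty acids, and its gene of 3 exons lies on chromosome 19 from 38097079 to 38114263, on the plus strand. These 2 were the only members with a mean of 1 FPKM or more, a level reached by 12652 of the 23361 genes. The mean of Grm4 was above that of 58.9% of all genes, and the mean of Ffar4 above that of 49.7%.

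A middle group of 4 genes lay between 0.251 and 0.542 FPKM. Cd36, on chromosome 5 from 17781690 to 17888959, had 0.542 FPKM at 2 and 0.521 FPKM at 6 months. Casr, the extracellular calcium receptor known from the parathyroid gland and kidney, lies on chromosome 16 from 36490585 to 36562141 and had 0.364 and 0.451 FPKM. Gpr84, a receptor for medium-chain fatty acids best known from myeloid cells, lies on chromosome 15 from 103308233 to 103310670 and had 0.251 and 0.367 FPKM. Ffar2, a receptor for short-chain fatty acids known from the gut and leukocytes, lies on chromosome 7 from 30818031 to 30823775 and had 0.323 and 0.288 FPKM. Each of these 4 genes was above 0 in both ages.

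The remaining pair was at or near 0. Gprc6a, a class C receptor for basic amino acids and divalent cations on chromosome 10 from 51614823 to 51631458, had 0.0185 FPKM at 2 months and is listed at 0 at 6 months. Ffar1, a receptor for medium- and long-chain fatty acids known from pancreatic beta cells, is listed at 0 in both ages. It lies on chromosome 7 from 30860568 to 30861470, close to Ffar2 and to Ffar3, another short-chain fatty acid receptor, which is also listed at 0 in both ages.

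**Figure D1:**
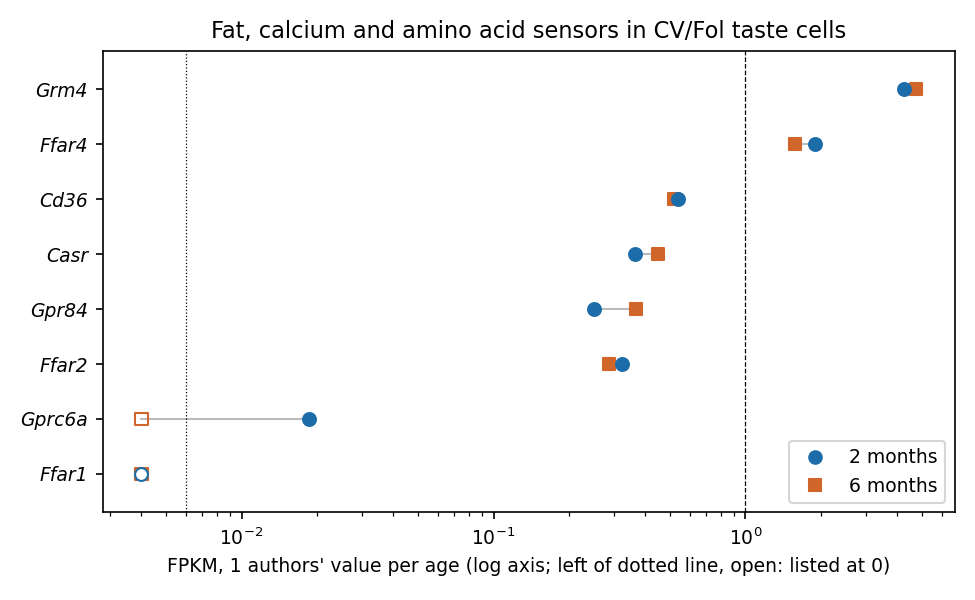
FPKM of the 8 sensor genes on a log axis, with circles for 2 months and squares for 6 months, 1 authors' value per age and no error bars; open symbols left of the dotted line are listed at 0, and the dashed line marks 1 FPKM. Grm4 and Ffar4 lie right of 1 FPKM at both ages, 4 genes lie between 0.251 and 0.542 FPKM, and Gprc6a and Ffar1 are at or near 0.

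AP-1 factors were among the genes that the study followed. The 250 bases before the annotated start of each sensor gene were therefore searched on both strands. The patterns were a loose form of the AP-1 site (TGANTCA, N being any base), the TATA box (TATAAA), the CCAAT box and the GC box (GGGCGG). Windows from RefSeq (GRCm38.p6) were found for 7 of the 8 members, 10 windows in all, some of which overlap, and the remaining member is Grm4. The loose AP-1 pattern was in 6.75% of all 32851 promoter windows, TATA boxes in 12.4%, CCAAT boxes in 33.8% and GC boxes in 32.7%. Of the 10 windows, 1 held the loose AP-1 pattern, the window before the most upstream of 4 starts of Ffar2. The match, TGATTCA, began 52 bases before that start and has T at the open position. No TATA box was found in the 10. The Ffar4 window had 11 CpG dinucleotides and a GC content of 61.2%. The window of Cd36, which starts at an internal position of the annotated gene, had 3 CpG dinucleotides and a GC content of 43.2%. Over all windows, the median was 6 CpG dinucleotides (quartiles 2 and 16), and both windows lay within these quartiles. The median GC content was 52.4% (quartiles 45.2% and 61.2%). The windows of Ffar4, Cd36 and this start of Ffar2 are shown because they hold the fat sensor with the highest level, the best-known fat sensor of taste buds and the AP-1 match. Each runs 5′ to 3′ on the strand of its gene, and capitals mark the matches to the 4 motifs on either strand. A match is a run of letters and not a binding site, and no binding data were analysed here.
Ffar4, chr19:38096829-38097078, plus strand: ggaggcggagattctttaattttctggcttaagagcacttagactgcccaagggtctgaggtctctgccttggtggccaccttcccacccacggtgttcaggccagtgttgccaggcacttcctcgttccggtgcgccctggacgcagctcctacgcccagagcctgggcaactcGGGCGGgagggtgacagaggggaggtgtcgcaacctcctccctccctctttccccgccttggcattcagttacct
Cd36, chr5:17835897-17836146, minus strand: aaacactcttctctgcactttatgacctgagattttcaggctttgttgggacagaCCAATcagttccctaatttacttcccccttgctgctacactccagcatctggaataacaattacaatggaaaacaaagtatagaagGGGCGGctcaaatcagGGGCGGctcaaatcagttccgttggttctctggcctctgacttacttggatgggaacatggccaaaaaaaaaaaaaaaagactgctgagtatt
Ffar2, chr7:30823776-30824025, minus strand: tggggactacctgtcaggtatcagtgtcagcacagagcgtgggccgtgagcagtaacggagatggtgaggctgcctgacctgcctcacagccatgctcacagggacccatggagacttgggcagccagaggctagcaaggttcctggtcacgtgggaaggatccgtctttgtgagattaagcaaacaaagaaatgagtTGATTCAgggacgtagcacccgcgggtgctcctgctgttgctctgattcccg

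In these windows, the GC box of Ffar4 began 75 bases before the start, and Cd36 had GC boxes beginning 109 and 93 bases before its start and a CCAAT match 195 bases before it.

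The order of the levels was nearly the same in both ages. Grm4 was 2.27 times as high as Ffar4 at 2 months and 3.01 times at 6 months, and Ffar4 was 3.47 and 3.03 times as high as Cd36. The lower neighbours were closer together: Cd36 was 1.49 and 1.16 times as high as Casr, and Casr was 1.45 and 1.23 times as high as Gpr84. Gpr84 and Ffar2 changed places, with Gpr84 at 0.776 times the level of Ffar2 at 2 months and at 1.27 times at 6 months. FPKM is scaled by transcript length, so levels of different genes can be set side by side, but whether these neighbours differ by more than the pools do is unknown.

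The low values show how much sequence lies behind each level. For genes with a single annotated transcript of 1500 to 4000 bases, FPKM times the length in kilobases gives fragments scaled to library size alone, and values between 0.01 and 0.025 formed a lowest step with a median of 0.0172 at 2 months (193 genes) and 0.0176 at 6 months (216 genes). Only 3 genes lay under this step at 2 months and 1 at 6 months. The median of the next step, from 0.025 to 0.045, was 2.09 times as high at 2 months and 2.01 times at 6 months. Taking the lowest step as 1 fragment, Grm4 rested on about 1144 fragments at 2 months and 1240 at 6 months. Ffar4 rested on about 153 and 125 fragments, Cd36 on about 107 and 100, and Casr on about 96 and 116. Ffar2 had about 43 and 38 fragments and Gpr84 about 25 and 36. The 0.0185 FPKM of Gprc6a at 2 months came to about 3 fragments, which have an exact Poisson interval of 0.619 to 8.77. If the listed 0 at 6 months is a true count, it allows up to 3 fragments. If it is a failed estimate, it sets no limit. Either way, the ages could not be told apart for this gene at this depth. These numbers are approximate, because the length of the longest transcript matched to RefSeq was used. With the shortest, Grm4 came to 739 and 801 fragments, Cd36 to 84 and 79, and Ffar2 to 23 and 20. Intervals from them cover counting error only.

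None of the 6 sensor genes with values in both ages was past 1.5-fold on the log scales used here, and no fold is given for Gprc6a and Ffar1. As a plain ratio, Gpr84 was nearest to 1.5 with 1.46, and it came to 1.505 when the ages were scaled to the same upper quartile, which put it past 1.5-fold, as it did 25.2% of the 3180 genes of its level above 0 in both ages. On the log2(FPKM + 1) scale, which understates changes of low genes, the difference of 6 minus 2 months was 0.13 for Grm4 and -0.16 for Ffar4. Of the 2 members with a mean of 1 FPKM or more, 0 were past 1.5-fold, beside 2.77% of all 12652 such genes (1.05% higher and 1.72% lower at 6 months) and 2.47% of the 5701 genes with a mean of 1 to under 10 FPKM, the range in which both lie. The count past 2-fold was also 0, beside 1.60% of the 12652 genes. On the log2(FPKM + 1) scale, the quartiles of the 5701 genes were -0.09 and 0.10. Grm4 lay above the upper quartile and Ffar4 below the lower quartile. For the 4 members between 0.1 and 1 FPKM, the log2(FPKM + 0.1) scale was used, on which the difference was -0.05 for Cd36, 0.25 for Casr, 0.41 for Gpr84 and -0.13 for Ffar2. Of these 4, 0 were past 1.5-fold, beside 13.8% of the 3194 genes of that level. On that scale, the quartiles of those 3194 genes were -0.21 and 0.24, so that Casr and Gpr84 lay above the upper quartile and the other 2 within the quartiles.

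**Figure D2:**
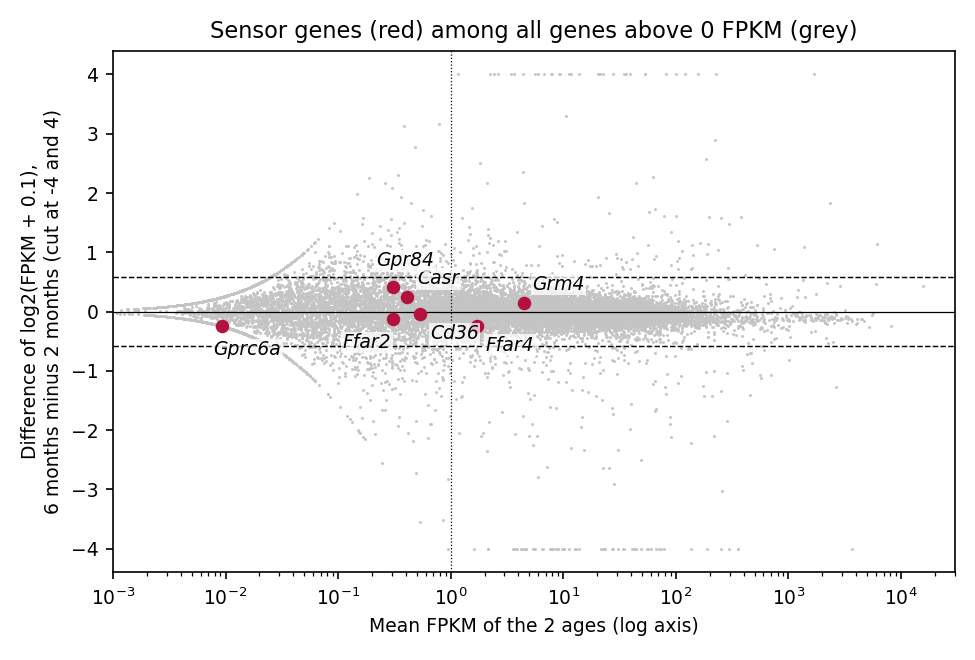
Difference of log2(FPKM + 0.1) between 6 and 2 months (vertical axis, values beyond 4 either way are drawn at 4) against the mean FPKM of the 2 ages (horizontal log axis), with all genes whose means fall on the axis in grey and the sensor genes in red; the dashed lines mark 1.5-fold and the dotted line 1 FPKM. All 7 sensor genes drawn lie between the dashed lines, and the grey cloud is wider among genes under 1 FPKM. Gprc6a rests on about 3 fragments, and its values are too small beside the added 0.1 FPKM to reach a dashed line. Its place therefore does not show a lack of change. Ffar1, listed at 0 in both ages, is not drawn.

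The ratio of the ages shows how large a difference the depth would leave room for. The Grm4 value at 6 months was 1.11 times that at 2 months, with an interval from the approximate fragment numbers of 1.03 to 1.21 (95%, exact binomial). This interval leaves out 1, but it holds no spread between pools and so gives no significance to the difference. The ratio was 0.840 for Ffar4 (0.658 to 1.07), 0.963 for Cd36 (0.725 to 1.28) and 1.24 for Casr (0.937 to 1.64). It was 0.891 for Ffar2 (0.561 to 1.41) and 1.46 for Gpr84 (0.853 to 2.54). The intervals of these 5 genes include 1. Those of Casr and Gpr84 also include a 1.5-fold higher value, and those of Ffar4 and Ffar2 a 1.5-fold lower value, so a change of that size could not be told from none in these 4 genes. In Gpr84, 681 exonic bases overlap an antisense gene, Gm49482, on the opposite strand. The library kit as described does not mark strand, and mapping was run with default settings, so reads of these 2 genes cannot be told apart. None of the other 7 members has an exon that overlaps another gene of the annotation.

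**Figure D3:**
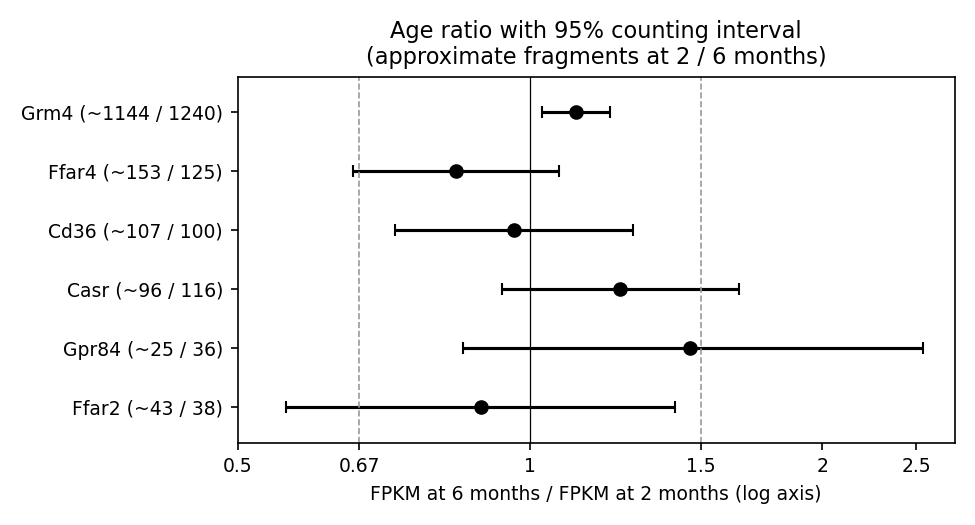
Ratio of FPKM at 6 months to FPKM at 2 months for the 6 sensor genes above 0 in both ages (log axis), with bars for the 95% interval from counting error and the approximate fragment numbers at 2 and 6 months beside each name; dashed lines mark 1.5-fold either way. The bar of Grm4 (1.03 to 1.21) lies right of 1, and the bars of the other 5 genes cross 1.

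The fatty acid sensors were then set beside the other receptors for fatty acids and small metabolites. Of 11 such genes in the list, 3 (Ffar3, Gpr119 and Oxgr1) are listed at 0 in both ages, and only 2 had a mean of 1 FPKM or more. Hcar2, listed under its older name Niacr1, which encodes a receptor for butyrate, ketone bodies and niacin, had 44.9 FPKM at 2 and 43.6 FPKM at 6 months. That was 23.9 and 27.6 times the level of Ffar4. Gpr35 had 4.10 and 4.13 FPKM, 2.18 and 2.62 times the level of Ffar4. Gpr132 had 0.434 and 0.495 FPKM, close to Cd36. Neither Niacr1 nor Gpr35 was past 1.5-fold between the ages, and their median difference was -0.02 on the log2(FPKM + 1) scale.

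Casr, Gprc6a and Grm4 were set beside the other class C receptors. The other 7 metabotropic glutamate receptor genes added up to 0.276 FPKM at 2 and 0.240 FPKM at 6 months, and the highest of them was at 0.123 FPKM (Grm2 at 2 months). Grm4 was 15.4 times this sum at 2 months and 19.8 times at 6 months. Against the classical taste receptors of this class, Grm4 was 1.58 and 1.64 times as high as Tas1r1, a subunit of the umami receptor, while Tas1r3, shared by the umami and sweet receptors, was 2.41 and 3.07 times as high as Grm4. Tas1r3 had 10.3 and 14.6 FPKM, Tas1r2, the other subunit of the sweet receptor, 9.67 and 11.5 FPKM, and the orphan receptor gene Gprc5a 6.40 and 6.34 FPKM. Of the 19 class C genes outside the members, 7 had a mean of 1 FPKM or more and 0 were past 1.5-fold, with a median difference of 0.00 on the log2(FPKM + 1) scale. That median was -0.01 over all 12652 genes with a mean of 1 FPKM or more. Among the other amino acid and peptide receptors, Lpar5, a lysophosphatidic acid receptor that also responds to peptone, had 17.8 and 20.4 FPKM, 4.19 and 4.30 times the level of Grm4, and Gpr142, a receptor for tryptophan, had 0.0566 and 0.0184 FPKM. The 3 highest of the genes known to shape calcium receptor signalling were far above Casr: Flna, a scaffold that binds the receptor, had 37.3 and 47.0 FPKM, and Ap2s1, an adaptor subunit for its uptake, had 158 and 144 FPKM. Stambp, which removes ubiquitin from endocytosed proteins, had 16.6 and 16.0 FPKM. Of these 10 partner genes, 8 had a mean of 1 FPKM or more and 0 were past 1.5-fold.

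**Figure D4:**
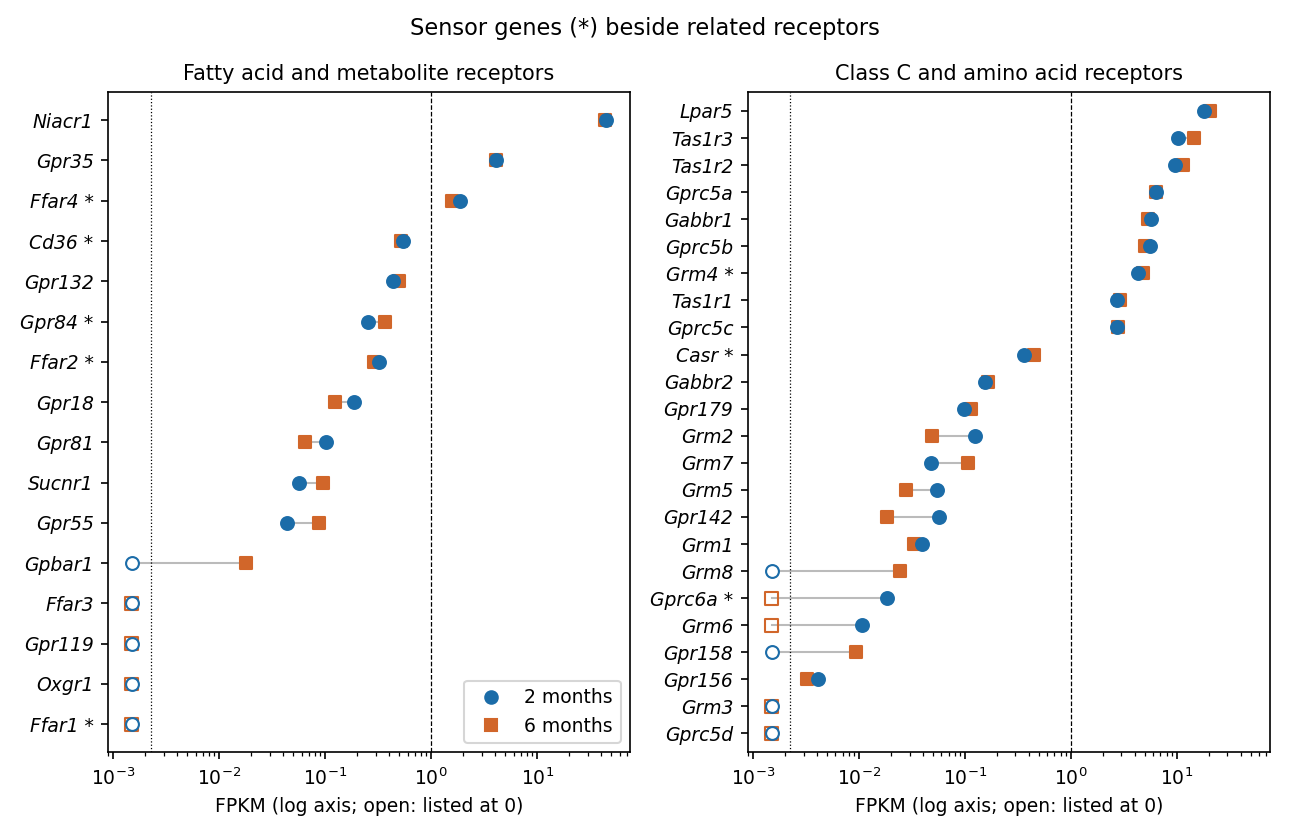
FPKM at 2 months (circles) and 6 months (squares) on log axes for the sensor genes, marked by asterisks, and for related receptors, ordered by mean; open symbols left of the dotted line are listed at 0 and the dashed line marks 1 FPKM. Niacr1 tops the fatty acid and metabolite receptors at 44.9 and 43.6 FPKM with Gpr35 and then Ffar4 next, and Grm4 lies between Gprc5b and Tas1r1 among the class C and amino acid receptors.

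Several genes for the uptake and binding of fatty acids had far higher levels than the sensors. Of 22 such genes, 13 had a mean of 1 FPKM or more, with a median difference of -0.03 on the log2(FPKM + 1) scale. Fabp5, a fatty acid binding protein typical of stratified epithelium, had 2457 FPKM at 2 and 3316 FPKM at 6 months, a difference of 0.43 on the log2(FPKM + 1) scale. The fatty acid transporters Slc27a4 (32.1 and 37.2 FPKM) and Slc27a1 (32.8 and 30.4 FPKM) were 59.3 and 60.5 times as high as Cd36 at 2 months. The acyl-CoA synthetase Acsl1, which activates fatty acids after uptake, had 58.1 and 64.1 FPKM, and Acsl5, of the same family, had 45.8 and 43.6 FPKM. Scarb1 and Scarb2, which belong to the same receptor family as Cd36, had 6.07 and 5.43 FPKM and 27.4 and 26.7 FPKM. Fabp4, the binding protein of adipocytes and of some macrophages and endothelial cells, was the only one of these 13 genes past 1.5-fold, with 0.692 FPKM at 2 and 3.48 FPKM at 6 months, a difference of 1.41 on the log2(FPKM + 1) scale. Among the genes with a mean of 0.1 to under 1 FPKM, the binding proteins Fabp3 (0.637 and 1.03 FPKM) and Fabp2 (0.0599 and 0.171 FPKM) were past 1.5-fold on the log2(FPKM + 0.1) scale, by 0.61 and 0.76.

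Among the 12 lipases that release fatty acids, 8 had means over 1 FPKM, and 1 of these 8 was past 1.5-fold. Lipf, the lipase gene of the lingual glands, had 83.7 FPKM at 2 and 14.7 FPKM at 6 months, a difference of -2.43 on the log2(FPKM + 1) scale. Of the other 7 lipase genes with a mean of 1 FPKM or more, 0 were past 1.5-fold, and the median difference of all 8 was -0.10 on that scale. Pnliprp2, a lipase gene with a lower mean, had 0.414 and 0.190 FPKM, past 1.5-fold on the log2(FPKM + 0.1) scale with -0.83. Mgll had 21.8 and 22.3 FPKM and Pnpla2 had 18.0 and 17.2 FPKM. Lipf is made by the glands that open at these papillae. The other 7 genes of a list for lingual salivary glands in general summed to 61.0 FPKM at 2 and 49.7 FPKM at 6 months. With Lipf, the sums were 145 and 64.4 FPKM. Among the 7, Muc5b had 20.1 and 18.2 FPKM, Dcpp1 16.3 and 13.0 FPKM, Dcpp3 20.2 and 13.4 FPKM and Dcpp2, a near-identical copy, 1.45 and 3.28 FPKM. The part of gland content in the Lipf value was not tested.

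Many genes listed for the transduction of fatty acids had higher levels than the fatty acid sensors. Gnat3, the taste G protein alpha subunit, was at 84.7 and 79.9 FPKM, 45.1 and 50.6 times Ffar4. Of 18 genes listed for the transduction of fatty acids, 16 had a mean of 1 FPKM or more and 0 were past 1.5-fold, with a median difference of -0.05 on the log2(FPKM + 1) scale. Among them, Gng13 and Gnb3, which encode the G protein subunits that pair with gustducin, had 148 and 126 FPKM and 124 and 113 FPKM, and Gnb1 had 122 and 119 FPKM. The Src-family kinases Lyn, Fyn, Yes1 and Src, known partners of Cd36, lay between 6.22 and 23.2 FPKM. Stim1 and Orai1, which carry calcium entry after Cd36 has bound a fatty acid, had 19.7 and 22.9 FPKM and 11.7 and 10.5 FPKM. Kcna5, a potassium channel that fatty acids block, is listed at 0 in both ages. Over all 9 lists of related genes together, 2 of 69 genes with a mean of 1 FPKM or more were past 1.5-fold, Fabp4 and Lipf, which is 2.90% and close to the 2.77% of all genes. Of the 16 related genes with a mean of 0.1 to under 1 FPKM, 3 (Fabp2, Fabp3 and Pnliprp2) were past 1.5-fold on the log2(FPKM + 0.1) scale, beside the 13.8% of all genes of that level.

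Several sensors are also known from cells other than taste cells, so marker genes of those cells were read in the same table. In bulk RNA, fewer cells of a type and less RNA per cell cannot be told apart. For Cd36, which endothelial cells express, 2 of 10 endothelial markers had a mean of 1 FPKM or more, and the list summed to 6.74 FPKM at 2 and 6.12 FPKM at 6 months. Vwf had 3.94 and 3.34 FPKM, Tek 1.57 and 1.55 FPKM, Egfl7 0.544 and 0.506 FPKM, Pecam1 0.331 and 0.295 FPKM and Esam 0.229 and 0.259 FPKM, and the other 5 (Cdh5, Kdr, Cldn5, Tie1 and Emcn) were under 0.1 FPKM. Of the adipocyte markers, which include Fabp4, 2 of 8 reached 1 FPKM, with Adipoq at 0.0444 and 0.0192 FPKM and Plin1 listed at 0 at 2 months and at 0.0198 FPKM at 6 months. Their sum was 4.72 and 7.13 FPKM. The rise of this sum lies in Fabp4 itself (0.692 and 3.48 FPKM), while Pparg, the other marker that reached 1 FPKM, had 3.79 and 3.44 FPKM. Skeletal muscle markers, with 5 of 8 at a mean of 1 FPKM or more and all 5 of these past 1.5-fold higher at 6 months, summed to 9.34 and 21.0 FPKM. For Gpr84 and Ffar2, which myeloid cells express, 8 of 12 macrophage markers had a mean of 1 FPKM or more. All 12 together summed to 83.3 FPKM at 2 and 76.7 FPKM at 6 months. The highest was Cd14 with 33.9 and 30.3 FPKM. Cd68 had 10.05 and 7.15 FPKM, C1qa 11.8 and 11.4 FPKM and Csf1r 2.56 and 3.13 FPKM. Of the 8, 4 were higher and 4 lower at 6 months. Mrc1, Cd163 and Fcgr1 were at or under 0.195 FPKM. Neutrophil markers, of which 8 of 9 are in the table, summed to 146 and 131 FPKM, nearly all of it S100a8 and S100a9, which keratinocytes also make. Csf3r had 3.40 and 3.60 FPKM and Retnlg 1.18 and 0.639 FPKM, Ngp, Camp and Mpo were at or under 0.301 FPKM, and Elane is listed at 0 in both ages. The share of these cells in the levels of Cd36, Gpr84 and Ffar2 was not tested.

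The nearest genes were sought by the distance between the log2(FPKM + 1) values at the 2 ages, among the genes of the lists. For Grm4, the nearest were Car4, a carbonic anhydrase of type III cells (4.23 and 4.87 FPKM), Dpp4 (4.21 and 4.61 FPKM) and Gpr35. For Ffar4, they were Gnal (1.95 and 1.64 FPKM), Tek and Ptprc. The likeness rests on 2 values per gene, and 17 genes of the whole table lay as near to Grm4 as Car4 did, and 14 as near to Ffar4 as Gnal.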

How the data were processed

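RNA of CV/Fol taste cells was measured in 6 pooled libraries, 3 at each age, and ages were taken from the sample labels (the series text names 3 months in one place). Per the labels and the methods, the authors mapped poly A selected reads to GRCm38/mm10 with TopHat2 2.0.7, quantified RefSeq genes as FPKM with Cufflinks 2.1.1 and ran Cuffdiff. The deposited FPKM values are 1 per gene and age. The table also holds the p-values of the authors' own comparison, which were not used. The column of each age was read from the group letter in the table and the sample titles.

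Differences were computed as log2(FPKM + 1), or log2(FPKM + 0.1) for genes under a mean of 1 FPKM, 6 minus 2 months. A gene past 1.5-fold or 2-fold was counted, with no test. Depth was estimated from the lowest step of the values in single-transcript genes, a step window set after the data had been seen, with GENCODE M21 lengths of transcripts matched to RefSeq. Ratio intervals are exact binomial. The members and lists were chosen with earlier results of these data known. Named genes were all members, the 3 highest genes of each related list and its genes past 1.5-fold, marker genes by list, and the 3 list genes nearest to each member over 1 FPKM; further genes were named with their values in view. The step estimate was tested on simulated data made with the same transcript lengths, so that test does not cover errors in the lengths. Tools were scipy 1.17.1, pandas 2.3.3, numpy 2.4.6 and matplotlib 3.10.9 under Python 3.11.15.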

Additional observations from a re-analysis of the deposited data

How the results depend on the processing

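No paired analysis was possible because the deposited values are pooled over the libraries of an age, and for the same reason no replicate was left out. With the log scales, no sensor gene was past 1.5-fold or 2-fold with a pseudocount of 0.1, with the 6 month values scaled by 1.03 to the upper quartile of the 2 month values, or without a filter. With a mean of at least 5 FPKM no member was left for these counts. The number of members over the minimum was 2 at 1 FPKM, 6 at 0.1 FPKM and 0 at 5 FPKM. The 6 log2 differences kept their sign in all 12 recalculations, but this says little about how firm the signs are. A change of pseudocount cannot alter a sign, and scaling by 1.03 could alter it only for nearly equal values. The scaling moved the median of all genes from -0.01 to 0.03. The count of related genes past 1.5-fold was 2 (Fabp4 and Lipf) and was also 2 with the scaling and without a filter, where the pseudocount of 1 leaves low genes little room to pass. Without a filter and with a pseudocount of 0.1, tried after the data had been seen, it was 7 (also Fabp2, Fabp3, Pnliprp2, Grm2 and Nts), and no sensor gene was past 1.5-fold. As plain ratios, also tried afterwards, 0 of the 6 sensor genes were past 1.5-fold unscaled and 1 (Gpr84, 1.505) with upper quartile scaling. With the shortest transcript as the length, which was tried after the data had been seen, the counting interval of Grm4 was 1.01 to 1.23 and those of the other 5 genes still included 1. Low fragment numbers limit Gprc6a and Ffar1, for which no fold can be given, and then Gpr84 and Ffar2.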

Other observations

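In the gut, fatty acid and amino acid receptors are known to release peptide hormones. Of 13 genes listed for gut-type hormones, their processing and their receptors, 2 had a mean of 1 FPKM or more, and both are peptidases: Pcsk1, which cuts prohormones, had 4.65 FPKM at 2 and 5.59 FPKM at 6 months, and Dpp4, which breaks down incretins, had 4.21 and 4.61 FPKM. Gcg, the gene of glucagon-like peptide 1, had 0.0147 FPKM at 2 months and is listed at 0 at 6 months. Cck had 0.482 and 0.529 FPKM, and Ghrl, the gene of ghrelin, had 0.712 and 1.09 FPKM. Neither peptidase was past 1.5-fold.

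Of the 16 G protein alpha subunit genes, a family through which the sensors other than Cd36 signal, 13 had a mean of 1 FPKM or more and 0 were past 1.5-fold. Gnas was highest with 283 and 266 FPKM, followed by Gnai2 with 93.2 and 96.4 FPKM and Gnat3. Gnaq and Gna11, which couple Ffar4 and Casr to phospholipase C, had 21.2 and 21.5 FPKM and 18.4 and 20.5 FPKM.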
